A study of Danio rerio with 8 samples.

Results

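The mitochondrial respiratory chain and the ATP synthase coupled to it were followed here in the liver of male zebrafish exposed to river water, as transcripts of the nuclear genes for their subunits. Members were chosen by name: a gene entered when its symbol, reached through the accession of its probe, began with *ndufa*, *ndufb*, *ndufc*, *ndufs*, *ndufv*, *sdha*, *sdhb*, *sdhc*, *sdhd*, *uqcr*, *cox4*, *cox5*, *cox6*, *cox7*, *cox8* or *atp5*. The annotation held 109 such genes. A probe was found for 89 of them, out of 13443 genes with a symbol on the array, and 20 had none by symbol. The 89 members were read by 155 probes, of which 152 were used, and comprised 80 subunits, 7 assembly factors that share the prefixes, and *atp5if1a* and *atp5if1b*, which encode inhibitors of the ATP synthase. The subunits fell into complex I (35 genes), complex II (5), complex III (7), complex IV (17) and complex V (16). The products of *ndufa4a* and *ndufa4b*, named after complex I, are now placed in complex IV and were counted there.

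The arrays came from wild-type male fish of 3 months, kept for 96 h in filtered river water or in control water, which was aerated tap water filtered through activated carbon; the source names of sites D and X give 97 h. Sites H1 to H5 lay along the Hun River, with H1 near the reservoir, site D on the Dongzhou River and site X on the Xi River, both tributaries. Each condition was 1 one-colour array of RNA pooled from the livers of 5 fish, so there were 8 arrays, no replicates and no p-values. Second arrays that the methods mention were not analysed here. With 1 array per condition, a site difference includes the difference between pools of fish, and it cannot be told apart from it. Arrays of H1, H2, D and control lay on 1 slide and those of H3, H4, H5 and X on another, so that for these 4 sites slide and site cannot be told apart.

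Electrons enter the chain at complex I (NADH dehydrogenase) or complex II (succinate dehydrogenase), pass to complex III and by cytochrome c to complex IV (cytochrome c oxidase), and the proton gradient built on the way drives complex V (ATP synthase). Most subunits are encoded in the nucleus and imported, while a few core subunits are encoded by mitochondrial DNA; none of these was found on the array by symbol. Several subunits of complex IV exist as paralogs whose balance differs between tissues, and hepatocytes are rich in mitochondria.

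Levels are log2 intensities brought to a common distribution across the 8 arrays by quantile normalization and averaged over the probes of a gene, and a difference is the level at a site minus the level in control (1 log2 unit is 2 fold). On an array, 56.5% to 70.8% of spots were well above background, and repeated spots of a probe had a median SD of 0.09 to 0.13 log2 units and a pooled SD of 0.14 to 0.54, highest at D (0.54) and in control (0.44). Hepatocyte markers were well above background on all arrays (12 of 12 genes), with a mean level of 16.73 to 16.94 at the sites and 16.79 in control. Markers of other tissues differed widely between the pools and are given beside the members they moved with. In bulk RNA, fewer cells of a type and less RNA per cell cannot be told apart. Of the 89 members, 83 were well above background on all 8 arrays with every probe used; the others were *ndufa1*, *ndufa12*, *ndufa4b*, *ndufaf7*, *ndufs8b* and *sdhda*.

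Few members differed from control by 2 fold or more at any site. At H1, 1 of 87 members did, where 17.7% of all genes did. At H2 none of 87 did, against 7.89% of all genes. At H3 the count was 3 of 88, with 21.5% of all genes past that threshold. At H4 it was 0 of 87, with 14.4% of all genes. At H5 it was 1 of 88, with 9.82% of all genes. At D it was 7 of 88, the highest of the 7 sites, with 24.2% of all genes. At X it was 4 of 87, with 16.0% of all genes. Most members were bright, and bright genes as a whole differed less: among the 74 members of mean level 12 or more, 2 passed 2 fold at D (2.70%), 1 at H3 (1.35%) and 1 at X (1.35%), against 10.5%, 10.4% and 6.25% of 1776 genes of that level. The mean is over all 8 arrays, so a gene that is bright in control can miss it by being low elsewhere. *Ndufa4b*, above 12 in control but low at H1, H3, D and X, is thus not among the 74. Scaling to the 75th percentile of each array in place of quantile normalization raised the count at D to 19 of 88 (17 higher and 2 lower), where 27.4% of all genes then passed 2 fold. The same scaling gave a median over all genes of 0.33 at D in place of 0.13, and of −0.13 at H4 in place of −0.01.

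The members that passed 2 fold were scattered over complexes and not shared by many sites. *Ndufa4b* was lower at H1, H3, D and X. *Ndufa1* was higher at D and X. *Sdhda*, a dim gene, was higher at H3 and H5. *Atp5if1a* was lower at H3, *atp5if1b* and *sdhaf4* were lower at D, *atp5pd* was lower at X, *cox4i2* was higher at X, and *ndufs8b*, *atp5md* and *ndufa12* were higher at D. *Sdhda* and *ndufa12* were well above background at the sites named only, so they entered the counts there and nowhere else. For *ndufa12* the bound at D was only 1.16 fold. Comparisons of all 7 sites share the control array, so a member out of place in control moves at all of them.

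**Figure D1:**
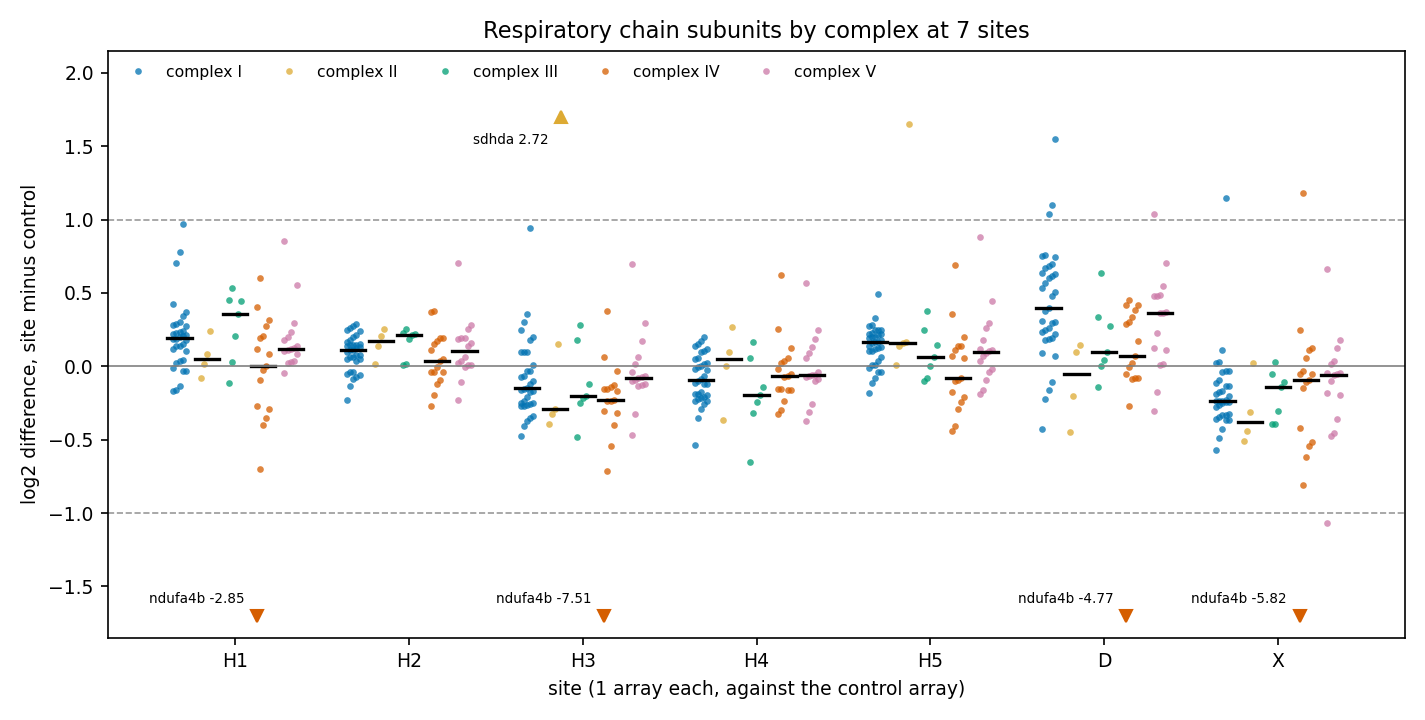
Log2 difference from control (y axis) of every subunit measured at each of the 7 sites (x axis), coloured by complex. Black bars are medians of a complex, dashed lines mark 2 fold, and triangles with values stand for genes beyond the plotted range. Nearly all points lie between the dashed lines; *ndufa4b* is far below them at H1, H3, D and X.

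As a group the members moved little, and the direction of their median depended in part on the scaling. The median log2 difference of the members was 0.18 at H1, 0.12 at H2, −0.14 at H3, −0.07 at H4, 0.12 at H5, 0.24 at D and −0.17 at X. Over all genes the medians were 0.05 at H1, 0.03 at H2, 0.08 at H3, −0.01 at H4, 0.00 at H5, 0.13 at D and 0.08 at X. The share of members higher than control was 78.2% at H1, 75.9% at H2, 27.3% at H3, 36.8% at H4, 72.7% at H5, 73.9% at D and 23.0% at X. With scaling to the 75th percentile the shares were 58.6% at H1, 69.0% at H2, 48.9% at H3, 5.75% at H4, 39.8% at H5, 92.0% at D and 43.7% at X, and the H5 median turned to −0.07. Bright genes as a whole shifted too under that scaling. Genes of level 12 or more then had medians of −0.05 at H1, 0.02 at H2, 0.16 at H3, −0.33 at H4, −0.14 at H5, 0.38 at D and 0.19 at X. The shares are of members only and are not particular to the chain where bright genes shifted. Centring on the slide turned the medians of H3, H4 and X to 0.07, 0.11 and 0.00. Only the higher medians at H1, H2 and D kept their direction under all alternatives tried. Centring on the slide could not turn them, as these sites share the slide of control. The medians of H3, H4 and X turned under that alternative only. The pooled SD between probes of 1 gene was 0.16 log2 units at H1 and H2, 0.29 at H3, 0.18 at H4, 0.37 at H5, 0.24 at D and 0.27 at X (43 genes with several probes). The median SD was lower, at 0.08 to 0.16 over the 7 sites, as a few genes disagreed widely between probes, such as the dim *sdhda* at H5 (0.25 and 3.04).

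Complex I, the entry point for NADH, was higher at D and lower at X in most of its subunits. At D, 31 of its 35 subunits were higher than control, *ndufa12* among them, which was well above background and compared at D only. The median at D was 0.39. With 75th percentile scaling the median was 0.73, when all genes were at 0.33 and genes of level 12 or more at 0.38. At X, 30 of 34 measured subunits were lower, with a median of −0.24, although centring on the slide brought this to 0.00. The core iron-sulfur subunit *ndufs1* had levels of 11.39 at H1, 11.37 at H2, 11.35 at H3, 11.04 at H4, 11.47 at H5, 12.01 at D and 11.02 at X, against 11.25 in control. Its level at D stood above all other arrays, while at H3 its 2 probes disagreed (−0.43 and 0.62). *Ndufv1*, which encodes the subunit that binds NADH, had levels of 11.93 at H1, 11.62 at H2, 11.80 at H3, 11.36 at H4, 11.47 at H5, 12.22 at D and 11.44 at X, against 11.55 in control, so that D was again the highest. The differences at D were 0.75 for *ndufs1* and 0.67 for *ndufv1*, and *ndufv2*, also a core iron-sulfur subunit, was at 0.75. The accessory subunits *ndufb6* (0.76), *ndufa11* (0.70) and *ndufa6* (0.68) were of the same size. *Ndufs6* was the lowest complex I subunit at D (−0.43), and *ndufb7* was at −0.22 there.

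*Ndufa1*, which encodes a small membrane-arm subunit, ran apart from the rest of complex I. Its level was 9.10 at H1, 8.47 at H2, 9.26 at H3, 8.42 at H4, 8.60 at H5, 9.42 at D and 9.47 at X, against 8.32 in control. Both of its probes put H1, H3, D and X above control, by 1.14, 1.14, 1.38 and 1.41 with the brighter probe and by 0.42, 0.74, 0.83 and 0.89 with the dimmer one, which was not well above background at H2. H1, H3, D and X are also the arrays with the lowest levels of intestine markers. Over the 8 arrays *ndufa1* correlated with the mean level of 9 intestine markers with r = −0.96, a description of 8 arrays that share these pools. With 13 exocrine pancreas markers r was −0.85 and with 12 skeletal muscle markers −0.92. The part of these markers in the difference was not tested.

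*Ndufs8b*, one of a pair of genes for a core iron-sulfur subunit, rested on 1 dim probe. Its level was 8.44 at H1, 7.24 at H2, 7.67 at H3, 6.94 at H4, 7.67 at H5, 8.51 at D and 7.11 at X, against 7.47 in control, and it was not well above background at H2. The difference was 0.97 at H1 and 1.04 at D, while its bright paralog *ndufs8a* was at −0.03 and 0.09 there. *Ndufa12* was well above background at D only, where it was at least 1.16-fold higher than control; its measured difference of 1.55 rests on dim signals. *Ndufab1a*, the mitochondrial acyl carrier protein, was at 0.70 at H1 and 0.49 at H5.

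Complex II, which is also the succinate dehydrogenase of the citrate cycle, had the lowest median of the 5 complexes at H3 (−0.29) and X (−0.38), and medians of −0.05 to 0.17 at the other 5 sites. With 75th percentile scaling its medians were −0.24 at H3 and −0.26 at X, and centred on the slide they were −0.08 and −0.22, with complex IV then lower at H3 (−0.11). *Sdha*, the flavoprotein that oxidizes succinate, had levels of 11.81 at H1, 11.82 at H2, 11.71 at H3, 11.83 at H4, 11.73 at H5, 11.71 at D and 11.59 at X, against 11.56 in control. This mean over 3 probes lay above control at all 7 sites, by 0.02 to 0.26, but the probes disagreed in sign at some sites. At X the brighter probes gave −0.12 and −0.10 and the dimmest gave 0.29. The brightest probe was also below control at H1 (−0.08) and H5 (−0.06), where the others were above it. *Sdhb*, the iron-sulfur subunit, ranged from −0.44 at X to 0.16 at H5. The membrane anchors *sdhc* and *sdhdb* were at −0.31 and −0.51 at X, at −0.39 and −0.29 at H3, and at −0.20 and −0.45 at D, where the 2 probes of *sdhdb* gave 0.05 and −0.94.

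The second gene for an anchor, *sdhda*, was well above background at H3 (both probes) and at H5 (1 of 2 probes) and at no other array. Its level was 5.13 at H1, 5.66 at H2, 7.70 at H3, 5.25 at H4, 6.63 at H5, 4.81 at D and 5.63 at X, against 4.98 in control, where neither probe was well above background. Against the lowest signal well above background in control, it was at least 2.87-fold and at least 1.47-fold higher at H3 by its 2 probes, and at least 2.05-fold higher at H5 by the 1 probe seen there. Markers of germ and Sertoli cells were also higher at these sites: 9 of 9 were well above background at H3, H4 and H5, against 6 of 9 in control, and their mean level was 8.57 at H3, 9.89 at H4 and 8.76 at H5, against 6.77 in control. At H4, where that mean was highest, *sdhda* was not above background with either probe. *Ddx4*, *gsdf* and *sycp3* were the germ and Sertoli markers not well above background in control. The median difference of the compared germ and Sertoli markers was 2.49 at H3, 4.24 at H4 and 1.63 at H5. Centred on the slide, it was 0.04, 1.61 and 0.23. Over the 8 arrays *sdhda* correlated with the mean level of the list with r = 0.43, as a description. The part of these markers in the *sdhda* levels was not tested.

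Complex III, which passes electrons from ubiquinol to cytochrome c, was higher at H1 and H2. Its median difference was 0.36 at H1 and 0.22 at H2, with 6 of 7 and 7 of 7 subunits above control. With 75th percentile scaling it was 0.22 at H1 and 0.16 at H2, and D was then highest (0.48). Centred on the slide, H5 was highest (0.40), so that the order of sites depended on the scaling. *Uqcrfs1*, the Rieske iron-sulfur protein, had levels of 14.31 at H1, 14.08 at H2, 14.04 at H3, 13.73 at H4, 14.24 at H5, 14.14 at D and 13.56 at X, against 13.86 in control. *Uqcrc1*, a core protein, had 12.94 at H1, 12.71 at H2, 12.77 at H3, 12.17 at H4, 12.74 at H5, 12.83 at D and 12.10 at X, against 12.49 in control. By the mean over probes, both genes were below control at H4 and X and above it at the other 5 sites. Some single probes went the other way. The brightest *uqcrc1* probe was at −0.05 at H3 and −0.16 at H5, and 1 *uqcrfs1* probe was at −0.18 at H3 and another at −0.06 at D. The 2 genes for the other core protein parted at D, where *uqcrc2a* was at 0.63 and *uqcrc2b* at −0.14, and *uqcrc2a* was the lowest bright member at H4 (−0.65).

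Complex IV, which reduces oxygen, had medians between −0.23 at H3 and 0.07 at D. The median was 0.00 at H1, −0.06 at H4, −0.08 at H5 and −0.10 at X. With 75th percentile scaling the medians were −0.13 at H1, −0.03 at H3, −0.43 at H4, −0.21 at H5, 0.60 at D and 0.16 at X, so that H4 was then the lowest. Genes of level 12 or more were then at −0.33 at H4 and 0.38 at D. *Cox4i1*, the regulatory subunit of most tissues, had levels of 15.45 at H1, 15.44 at H2, 15.25 at H3, 15.24 at H4, 15.39 at H5, 15.40 at D and 15.44 at X, against 15.48 in control. *Cox5aa*, another subunit encoded in the nucleus, had 15.31 at H1, 15.30 at H2, 14.98 at H3, 14.95 at H4, 14.93 at H5, 15.56 at D and 15.06 at X, against 15.11 in control. The largest difference of either gene was 0.45, for *cox5aa* at D. *Cox5ba* was lower at H3 (−0.71) and X (−0.54) and at 0.40 at H1 and 0.41 at D, by 1 probe, while *cox5b2* with 3 probes stayed within −0.11 and 0.12.

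The large exception was *ndufa4b*. Its level was 10.64 at H1, 13.23 at H2, 5.99 at H3, 13.62 at H4, 13.26 at H5, 8.73 at D and 7.68 at X, against 13.50 in control. H2, H4 and H5 were close to control, and the log2 difference was −2.85 at H1 (7.22-fold lower), −4.77 at D (27.3-fold lower) and −5.82 at X (56.4-fold lower). At H3 neither probe was well above background, and the 2 probes placed it at least 107-fold and at least 81.2-fold lower than control. The probes differed from each other by a log2 SD of 0.00 to 0.35 over the 7 sites. H1 and D share their slide with control. Centred on the slide, the difference was −6.12 at H3 and −4.43 at X, but 1.51 at H4 and 1.14 at H5, as their slide holds 2 of the 3 lowest arrays. Its paralog *ndufa4a* had levels of 14.83 at H1, 14.89 at H2, 14.89 at H3, 14.76 at H4, 14.85 at H5, 15.23 at D and 15.05 at X, against 14.93 in control, and its largest difference was 0.30, at D.

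Intestine markers moved with *ndufa4b*. Of 10 listed markers 9 were measured, and the number well above background was 9 at H1, H2, H4, H5 and control, 7 at H3, 8 at D and 6 at X. Their summed signal was 62130 at D, 91284 at X, 135827 at H3, 140546 at H1, 301508 at H2, 366838 at H5 and 388380 at H4, against 379949 in control. *Vil1*, the microvillus protein villin, was not well above background at H3 and X, and *slc15a1b*, a peptide transporter, was not at H3, D and X. Both were well above background in control. The median log2 difference over the 9 markers was −2.52 at H1, −0.84 at H2, −4.52 at H3, −0.18 at H4, −0.20 at H5, −6.83 at D and −4.84 at X. Lower than control were 9 of 9 at H1 and X, 8 of 9 at H2, H3 and D, 6 of 9 at H5 and 5 of 9 at H4. Not all of the list fell, as *apoa4b.1* was at 0.31 at H3 and *fabp6* at 0.04 at D.

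Exocrine pancreas markers also moved, with all 13 measured genes well above background on every array and a mean level of 13.74 at H1, 15.21 at H2, 12.30 at H3, 16.07 at H4, 15.65 at H5, 14.36 at D and 13.50 at X, against 16.40 in control. Over the 8 arrays *ndufa4b* correlated with the mean level of the intestine markers with r = 0.92 and with that of the pancreas markers with r = 0.93, a description of 8 arrays that share the same pools. The 3 genes with the profile most like that of *ndufa4b*, by Pearson's r over the 8 arrays, were *mep1a.1* (0.99), *bin2a* (0.99) and *acp5b* (0.99). The mean level of skeletal muscle markers was lower too, at 6.03 at H1, 7.45 at H2, 6.18 at H3, 8.41 at H4, 7.61 at H5, 6.46 at D and 5.90 at X, against 8.78 in control. Of the 12 measured genes, 11 were well above background in control and 6 to 11 at the sites. Lower than control were 10 of 11 compared markers at H1, H2 and H3, 6 of 11 at H4, 8 of 11 at H5, 10 of 12 at D and 11 of 11 at X. Going the other way, *tnni2a.4* was at 2.11 at H3 and *atp2a1* at 1.24 at H4. The part of these tissues in the *ndufa4b* difference was not tested. Hepatocyte markers differed from control by a median of −0.05 to 0.19 over the same sites under quantile normalization. With 75th percentile scaling their medians were −0.02 at H1, 0.18 at H2, 0.46 at H3 and −0.32 at H4. They were −0.13 at H5, 1.02 at D and 0.37 at X, so that their steadiness depended on the scaling.

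**Figure D2:**
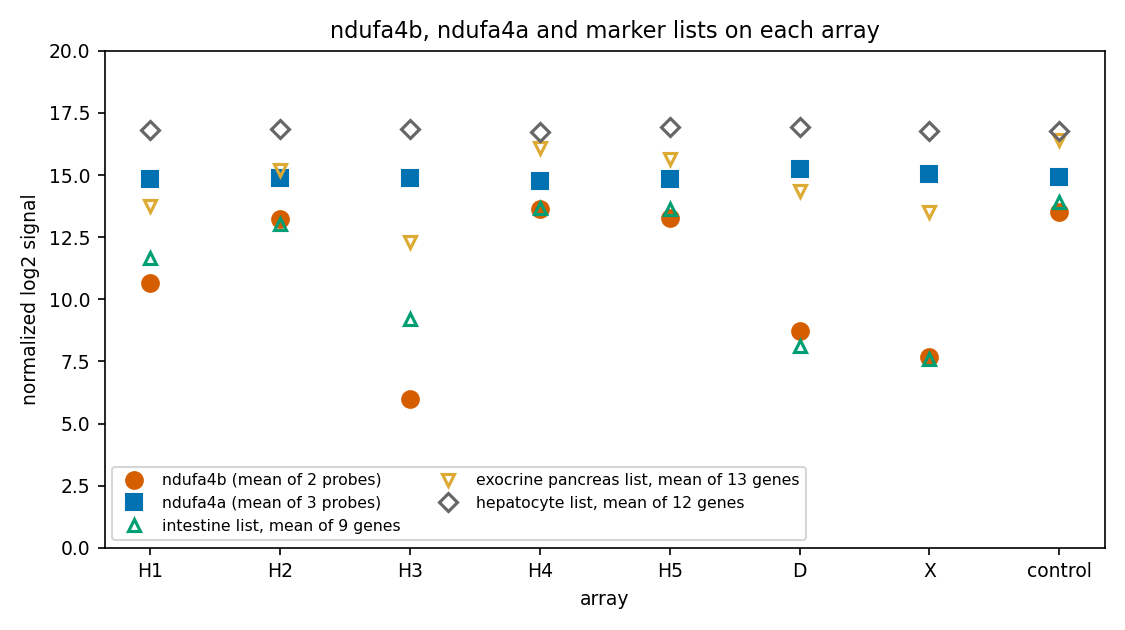
Normalized log2 signal (y axis) on each of the 8 arrays (x axis) of *ndufa4b*, its paralog *ndufa4a* and the mean of 3 marker lists. *Ndufa4b* and the intestine list are low together at H1, H3, D and X, while *ndufa4a* and the hepatocyte list stay level under quantile normalization.

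Other paralogs of complex IV parted by smaller amounts, in which both members of a pair are read on the same array, so that a constant shift of an array cancels, though not one that varies with level. *Cox4i2*, known in mammals as the isoform of lung and of low oxygen, had levels of 10.59 at H1, 11.44 at H2, 11.67 at H3, 11.91 at H4, 11.08 at H5, 11.71 at D and 12.47 at X, against 11.29 in control. It was highest at X (1.18 above control, or 2.26 fold) and lowest at H1 (−0.70), and the ranges of its 2 probes did not meet those of *cox4i1* at any site. The *cox4i1* difference minus the *cox4i2* difference was 0.67 at H1, −0.19 at H2, −0.61 at H3, −0.86 at H4, 0.11 at H5, −0.49 at D and −1.21 at X. With 75th percentile scaling it turned to 0.06 at D and −0.15 at H5, and was −1.02 at X. Centring on the slide brought the *cox4i2* difference to 0.65 at X and to −0.15 at H3.

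*Cox6a1* followed the median subunit over the 8 arrays (r = 0.77), while *cox6a2*, the isoform of heart and muscle in mammals, stayed within −0.35 and 0.04 of control. *Cox6a1* had levels of 13.94 at H1, 13.45 at H2, 12.80 at H3, 13.60 at H4, 14.03 at H5, 13.68 at D and 12.53 at X, against 13.34 in control. *Cox6a2* had 15.28 at H1, 15.53 at H2, 15.40 at H3, 15.67 at H4, 15.53 at H5, 15.66 at D and 15.58 at X, against 15.63 in control. The *cox6a1* difference minus that of *cox6a2* was 0.95 at H1, 0.79 at H5 and −0.76 at X. At D it was 0.31, and 0.01 with 75th percentile scaling.

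The *cox7a* paralogs showed the same kind of split, each by 1 probe. *Cox7a2a* was at 0.32 at H1, 0.37 at H2, 0.35 at H5 and −0.62 at X. *Cox7a1*, a heart and muscle isoform in mammals, was at −0.40 at H1, −0.12 at H2, −0.41 at H5 and 0.11 at X, and *cox7a2l*, a factor that joins complexes III and IV in mammals, was at −0.29, −0.19, −0.44 and 0.25. At H5, 7 of 7 cardiac muscle markers compared were at least 4.10 log2 units above control. *Myl7* and *nppa* among them were not well above background in control, so they entered through H5 and their differences rest on dim control signals. *Myh6* was well above background on neither array and was not compared. The mean level over all 8 listed markers on the array was 12.23 at H5, against 6.87 in control. At the same site *cox6a2* was at −0.10 and *cox7a1* at −0.41.

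**Figure D3:**
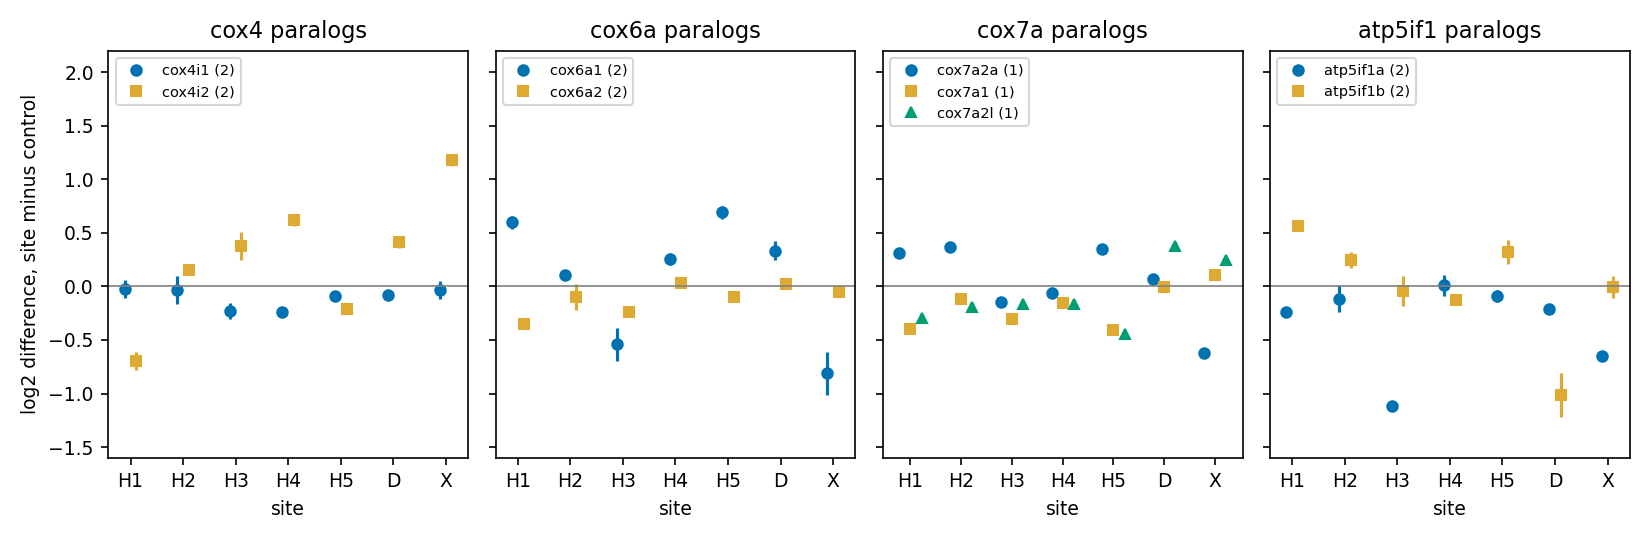
Log2 difference from control (y axis) at the 7 sites (x axis) of paralogs of *cox4*, *cox6a*, *cox7a* and *atp5if1*; the number of probes stands in the key, points are means over probes and lines span the probes. *Cox4i2* is highest at X and lowest at H1, *cox6a1* is highest at H5 and lowest at X, and *atp5if1a* and *atp5if1b* are lowest at H3 and D.

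Complex V subunits were higher at D, where 14 of 16 lay above control with a median of 0.36. With 75th percentile scaling the median was 0.68, when all genes were at 0.33 and genes of level 12 or more at 0.38. *Atp5f1b*, the catalytic beta subunit, read by 5 probes, had levels of 14.80 at H1, 14.85 at H2, 14.77 at H3, 14.53 at H4, 14.71 at H5, 14.83 at D and 14.42 at X, against 14.60 in control. *Atp5fa1*, the alpha subunit, had 13.44 at H1, 13.41 at H2, 13.42 at H3, 13.34 at H4, 13.36 at H5, 13.76 at D and 13.35 at X, against 13.40 in control, with D alone apart. The genes for the membrane ring subunit c, *atp5mc1*, *atp5mc3a* and *atp5mc3b*, were at 0.12, 0.36 and 0.48 at D, and at −0.46, −0.36 and 0.04 at X.

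A pair of complex V subunits stood apart. *Atp5pd*, of the peripheral stalk, had levels of 14.89 at H1, 14.76 at H2, 14.39 at H3, 14.49 at H4, 14.67 at H5, 14.56 at D and 13.80 at X, against 14.86 in control. Its difference at X was −1.07 (−0.98 with 75th percentile scaling and −0.64 centred on the slide). *Atp5md*, a small subunit of the membrane part, had 13.93 at H1, 13.79 at H2, 13.78 at H3, 13.65 at H4, 13.97 at H5, 14.12 at D and 13.74 at X, against 13.08 in control. All 7 sites thus lay 0.57 to 1.04 above control, by 1 probe. Set against the median of the other 7 arrays instead of the control array, its differences were −0.14 to 0.34, so that the control array lay below the other 7.

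The 2 inhibitor genes were low at different sites. Their products, known from mammals as IF1, block the ATP synthase from running backwards. *Atp5if1a* had levels of 13.69 at H1, 13.81 at H2, 12.80 at H3, 13.93 at H4, 13.83 at H5, 13.71 at D and 13.28 at X, against 13.92 in control. It was 2.17-fold lower at H3 and 1.56-fold lower at X, and its 2 probes gave −1.09 and −1.14 at H3. *Atp5if1b* had 15.38 at H1, 15.06 at H2, 14.77 at H3, 14.69 at H4, 15.14 at H5, 13.80 at D and 14.81 at X, against 14.82 in control. It was 2.02-fold lower at D (−0.81 and −1.22 by its 2 probes), and −0.68 with 75th percentile scaling. *Atp5if1a* correlated with the mean level of the pancreas markers over the 8 arrays with r = 0.91 (0.83 with leukocyte markers) and *atp5if1b* with r = 0.04, again as a description; the part of these markers was not tested.

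Under quantile normalization, the 7 assembly factors taken by the prefixes, all of complexes I and II, differed from the subunits in the sign of their median at D and X. Subunit medians were 0.15 at H1, 0.12 at H5, 0.29 at D and −0.18 at X. The 28 assembly factors outside the prefixes had medians of 0.32 at H1, 0.25 at H5, 0.17 at D and 0.05 at X. The 7 prefix factors had a median of 0.58 at H1 and 0.47 at H5, where 6 of 7 were higher than control. Their median was 0.09 at X and −0.29 at D, where scaling to the 75th percentile turned it to 0.13, with the subunits then at 0.63. Centred on the slide, the medians at X were 0.03 for these factors and 0.00 for the subunits. The signs thus no longer differed at either site under the alternative named. *Sdhaf4*, which helps to mature the flavoprotein of complex II, had levels of 12.43 at H1, 12.22 at H2, 11.80 at H3, 11.81 at H4, 12.18 at H5, 10.44 at D and 11.91 at X, against 12.05 in control. D alone was low, 3.06-fold, by 1 probe. *Sdhaf2*, which attaches the flavin to the same protein, was at 0.82 at H1 and −0.67 at D by 3 probes, while *sdha*, which encodes that flavoprotein, was at 0.24 and 0.15. *Ndufaf2*, a factor of complex I, was at 0.77 at H1 and −0.64 at D. *Ndufaf1* was higher than control at 6 of 7 sites (0.40 to 0.73) and at −0.12 at H4, and *ndufaf5* was lowest at H5 (−0.66).

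Across the 8 arrays, subunits of the chain followed one another. The correlation of each subunit with the median profile of the other subunits had a median r of 0.69 and passed 0.5 in 52 of 80 subunits (65.0%), against a median of 0.04 and a share of 15.9% in 1706 other genes of level 12 or more. Complex I was the tightest, with 27 of 35 subunits above 0.5 and a median of 0.85, and complex IV was looser, with 7 of 17 and 0.45. *Ndufs3* and *ndufb11* followed the median subunit most closely (0.97 each). *Cox4i2* (−0.59), *ndufa3* (−0.46), *sdhda* (−0.42) and *cox7a1* (−0.22) ran most against it. Centred on the slide, the median r was 0.57 for the subunits and 0.00 for the other genes of that level; with 75th percentile scaling both were higher, at 0.85 and 0.51, and genes of level 12 or more as a whole then had median differences of −0.33 at H4 to 0.38 at D. The profile was not particular to the chain. The subunit median correlated with the mean level of mitochondrial ribosome genes (r = 0.74), of mitochondrial carriers and uncoupling proteins (0.67) and of hepatocyte markers (0.67). For 28 assembly factors outside the prefixes r was 0.61, while over the other lists it went down to −0.35, for hypoxia targets. All these correlations are descriptions over 8 arrays that differ in pool and slide.

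The profile was one of small steps. The range over the 8 arrays had a median of 0.64 log2 units for the subunits, against 0.86 for genes of level 12 or more and 1.36 for all genes, and 63 of 80 subunits stayed within 1 unit. Under quantile normalization, the highest array was D for 39 of 80 subunits and H1 for 14, and the lowest was X for 30, H3 for 22 and H4 for 12. X, H3 and H4 lay on 1 slide and D and H1 on the other, so slide and site cannot be told apart in this order. Centred on the slide, the subunit medians were 0.07 at H3, 0.13 at H4 and 0.00 at X. With 75th percentile scaling H4 had the lowest subunit median (−0.40). The control array was highest for 1 subunit and lowest for 4.

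**Figure D4:**
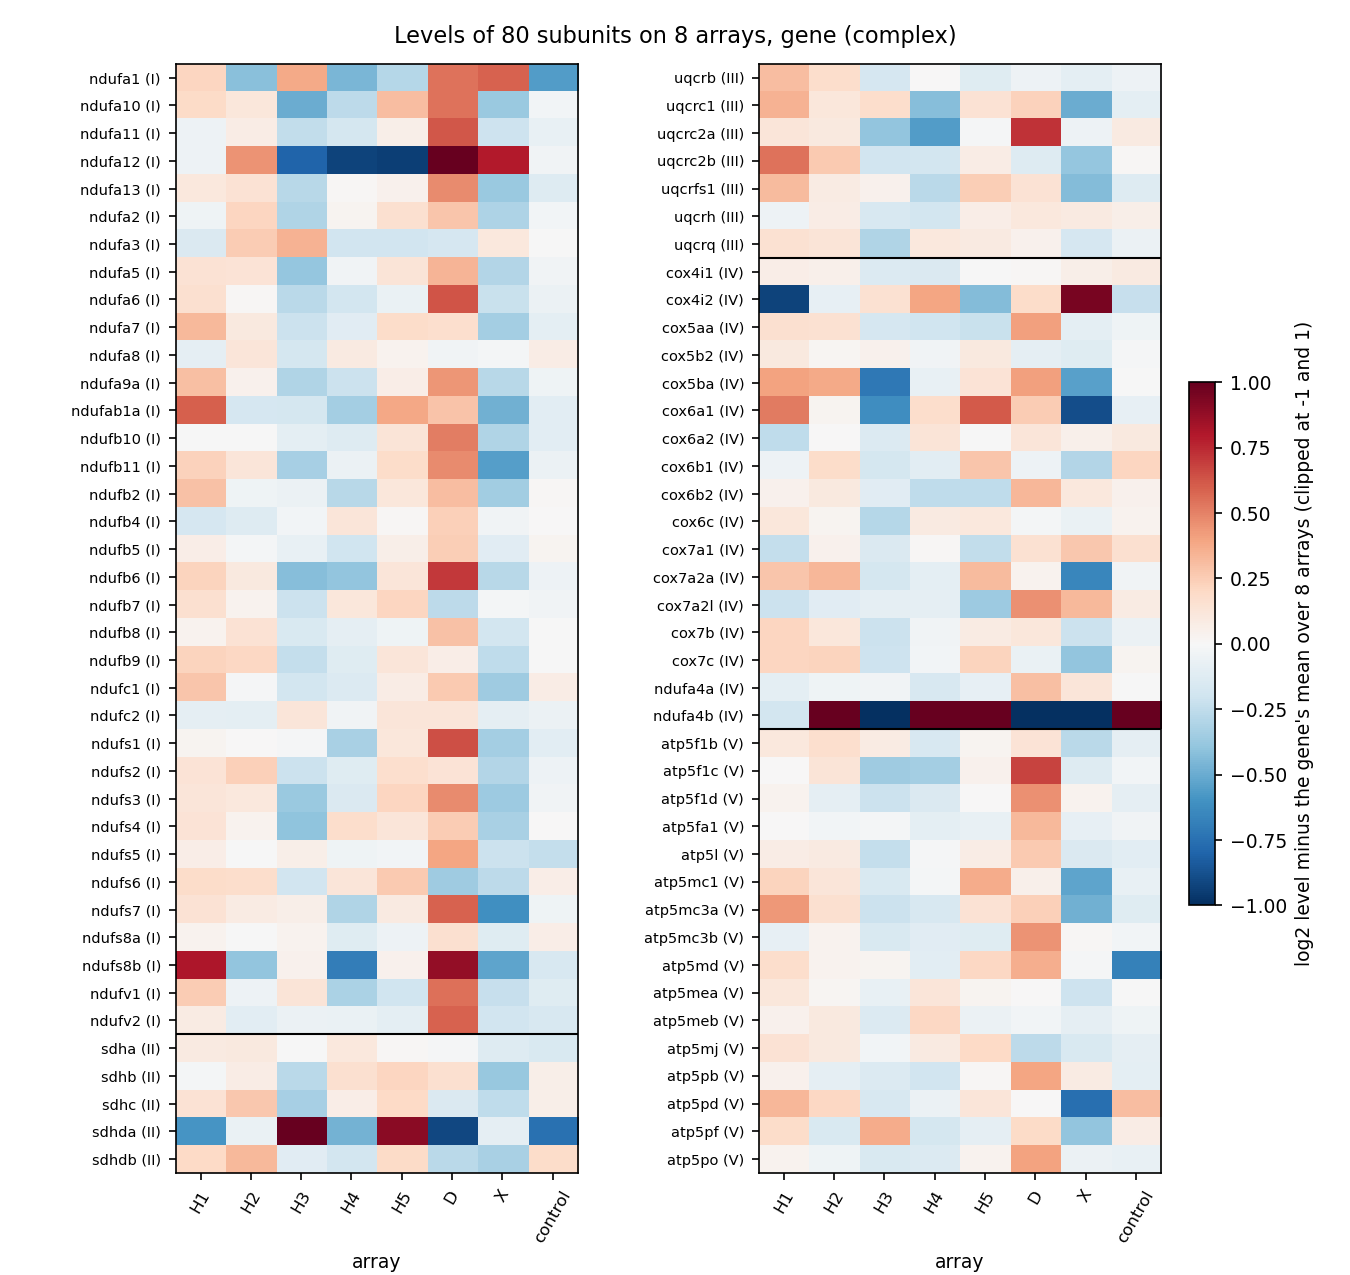
Level of each of the 80 subunits on each array (columns) minus the mean of that gene over the 8 arrays, in log2 units, with the complex in brackets and lines between complexes. Red columns at D and blue columns at X and H3 run through most of complex I, while *ndufa4b*, *cox4i2*, *sdhda* and *ndufa1* go their own way. Levels are quantile normalized, and H3, H4, H5 and X share a slide apart from that of D and control.

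Other genes of the mitochondrion moved alongside at some sites and not at others. The mitochondrial ribosome, which translates the subunits encoded by mitochondrial DNA, had a median of 0.32 at H1, 0.20 at H2 and 0.35 at H5, with 60, 58 and 59 of 65 genes higher than control. At D it was 0.11, below the 0.39 of complex I. The import machinery had 0.44 at H1, 0.35 at H5 and −0.04 at D, which 75th percentile scaling turned to 0.07. At H1, 3 of 24 import genes passed 2 fold (12.5%), against 17.7% of all genes. The chaperonin genes *hspd1* and *hspe1*, which fold imported proteins, were at 1.59 and 1.16 at H1. At H3 *hspe1* was the lowest of the import list (−0.55). Citrate cycle genes had 0.36 at H1, −0.34 at H4 and −0.03 at D, where 75th percentile scaling gave 0.24. Of the 2 genes of the cytochrome c list with a probe, *cycsb*, the electron carrier between complexes III and IV, was at 0.51 at H1, 0.58 at H5 and −1.20 at D, and *cyc1* was at 0.13, 0.11 and 0.17.

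Target genes of the hypoxia response had medians of 0.02 to 0.21 over the 7 sites (6 or 7 genes measured). Centring on the slide brought the H3 median to 0.58. At H3, 3 of 7 genes passed 2 fold, against 21.5% of all genes, with *egln3* highest (2.48) and *ldha* lowest (−2.50). At H1 it was 2 of 7, against 17.7% of all genes, with *egln3* at 1.97. At D it was 1 of 6, *ldha* at −3.47, against 24.2% of all genes. At X, where *cox4i2* was highest, the median was 0.10 with 2 of 7 genes past 2 fold, against 16.0% of all genes. These went opposite ways: *ldha*, a lactate dehydrogenase, was lower (−2.48), and *bnip3*, not well above background in control, was higher. *Bnip3* was among the 7 genes at H1, H3 and X only because it was well above background at those sites. The counts of 7 there thus depend in part on that filter. Of 28 further assembly factors, *acad9*, a factor of complex I, was higher at H1 (1.02), H3 (1.37) and H5 (1.13). *Cox16* (−1.58), *atpaf2* (−1.21) and *lyrm7* (−1.06) were lower at D, and *bcs1l* (2.01) and *uqcc1* were more than 2 fold higher there, which made 5 of 28 past 2 fold, or 17.9%, against 24.2% of all genes.

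**Figure D5:**
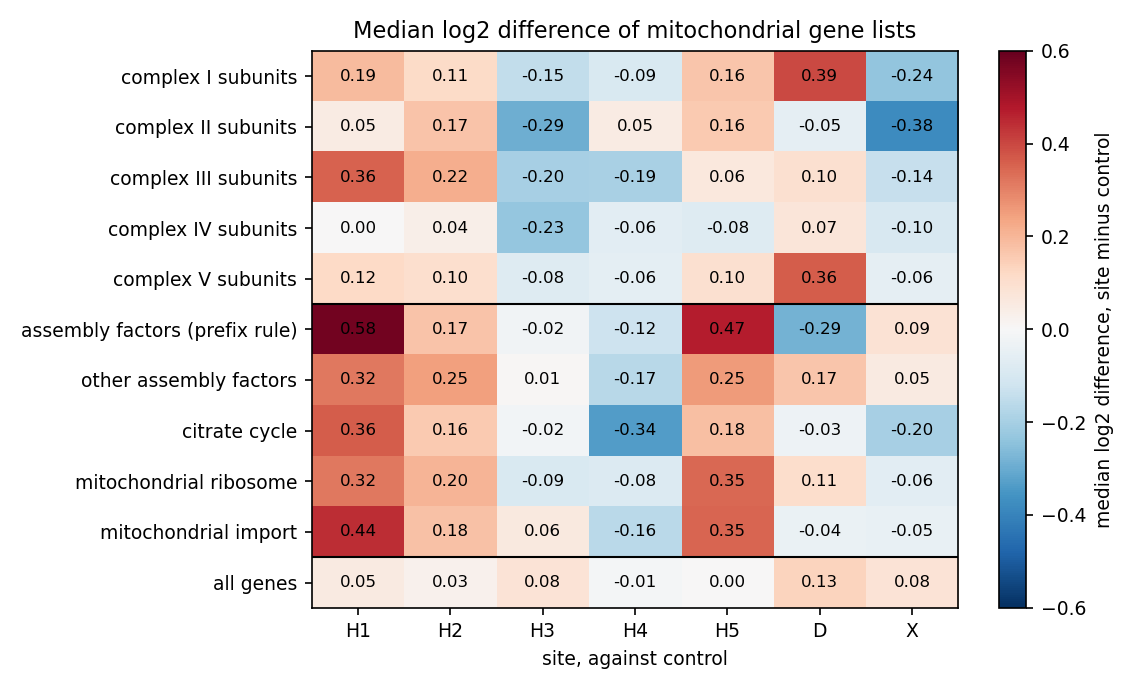
Median log2 difference from control (cell value and colour) of the 5 complexes, of the assembly factors and of 3 further mitochondrial lists at the 7 sites (columns), with all genes in the bottom line. Complexes I and V are highest at D, while assembly factors found by the prefixes, ribosome and import are highest at H1 and H5.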

How the data were processed

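Pooled liver RNA of each condition was hybridised to 1 of 8 one-colour Agilent arrays. The authors scanned them and deposited, for each spot, the background-subtracted intensity and spot marks; per the labels Feature Extraction 10.7 was used, and the file headers give 11.5.1.1. A deposited table of log2 values equals these intensities on the log2 scale, shifted on each array by about its 75th percentile, although the methods name quantile normalization. Genome build and annotation enter only through gene names: 26094 of 43603 probes got a symbol from a RefSeq table by accession, and no sequences or coordinates are given.

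Here log2 intensities were quantile normalized over the 8 arrays (Python 3.11.15, pandas 2.3.3). Spots of a probe were averaged, probes marked non-uniform or population outlier in at least 50% of spots on any array were dropped, and a probe was used when well above background on at least 1 array. A gene is the mean of its probes and was compared at a site when 1 probe was well above background there or in control. For a probe dim on 1 array, "at least" folds take the higher of its signal and the lowest signal well above background there.

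Members and lists were chosen with earlier results of these data known. Named genes are members past 2 fold at a site, the 3 highest and 3 lowest per site, 10 subunits listed by name, paralogs of 1 subunit, and other genes a result turned on; *ndufs8a*, *ndufa3* and the genes of the other lists and of complex I named with their values were picked after the values were seen. With 1 array per condition no test was run. Spread is the SD between probes or repeated spots, which covers error within an array only. Alternatives were 75th percentile scaling, the authors' log2 values, normexp background correction (limma 3.58.1, R 4.3.3), other filters and probe summaries, subunits only, centring on the slide and a reference made of the other 7 arrays' median; leaving out *ndufa4b* and genes of 1 probe were added after the data were seen.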

Additional observations from a re-analysis of the deposited data

How the results depend on the processing

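A median was called moved when it changed by over 0.1 log2 units and a count when it changed by over 1.5 times, since no replicate spread exists. Of 91 recomputed medians 75 stayed, 11 moved and 5 turned; of 91 counts 74 stayed. Scaling to the 75th percentile gave medians of 0.0766 at H1, −0.0074 at H3, −0.37 at H4, −0.0723 at H5, 0.59 at D and −0.0525 at X and 19 members past 2 fold at D, and the authors' log2 values gave 0.0768, −0.0069, −0.37, −0.0716, 0.59 and −0.0520 at the same sites and 19 at D. Centring on the slide gave 0.0667 at H3, 0.11 at H4, 0.29 at H5 and 0.0012 at X, and counts of 1 at H4, 2 at H5 and 2 at X; it leaves H1, H2 and D as they are by construction. Normexp correction gave counts of 0 at H5 and 4 at D. Of all genes, 3.48% at H5 and 10.96% at D then passed 2 fold, in place of 9.82% and 24.2%. Probes well above background on both arrays gave counts of 1 at H3 and 0 at H5. The shares of all genes were then 13.5% at H3 and 4.89% at H5, in place of 21.5% and 9.82%. Under these 2 settings the lower counts thus came with a lower share of all genes. No filter on dim probes gave 2 at H1, and the brightest probe of each gene gave 2 at H1. Taking as reference the other 7 arrays' median gave counts of 2 at H1, 1 at H2, 1 at H4 and 2 at H5. Without *ndufa4b* the count at H1 was 0, and without genes of 1 probe the count at D was 3. Beyond these, the cause was not tested. No paired analysis was possible because each group holds 1 array. Dim members (*sdhda*, *ndufa12*, *ndufaf7*, *ndufs8b*) carry bounds only or rest on signals near background, and D had the lowest 75th percentile of signal (922).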

Other observations

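*Ucp2*, an uncoupling protein of the inner membrane, was at 1.27 at H1 and −1.13 at X, sites at which the median of the respiratory chain members was 0.18 and −0.17. Its differences were 0.12 at H2, 0.36 at H3, −0.50 at H4, 0.63 at H5 and 0.44 at D. The member median at X depended on the scaling, at −0.05 with 75th percentile scaling and 0.00 centred on the slide. At H1 it was 0.08 with 75th percentile scaling. *Pdk2b*, a kinase that switches off pyruvate dehydrogenase, was lower than control at all 7 sites, with −1.89 at D, −1.17 at H4 and −1.06 at X past 2 fold, and −0.32 to −0.67 at the other sites. All 7 differences share the control array, which lay above each site. A high control value and a response at the sites cannot be told apart. Both genes were chosen after their values were seen.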
